A study of Mus musculus with 7 samples.

Results

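Collagen IV is the network-forming collagen of the lens capsule, the basement membrane on which the lens epithelium sits. Its 6 chains are encoded by Col4a1, Col4a2, Col4a3, Col4a4, Col4a5 and Col4a6, and every probe set that the platform annotation pairs with one of these symbols alone was taken. This gave 12 probe sets of the 45037 tested, with 2 for Col4a1, 1 for Col4a2, 2 for Col4a3, 3 for Col4a4, 2 for Col4a5 and 2 for Col4a6. All 6 chains gave signal above background in every lens, and none of the 12 probe sets passed the test for a difference between SPARC-null and wild-type lenses, a test that 3 of all 45037 probe sets (0.00666%) passed.

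The chains assemble inside the cell into trimers of fixed composition. Col4a1 and Col4a2 products form the trimer of nearly all basement membranes, Col4a3, Col4a4 and Col4a5 products form a second trimer, and Col4a5 and Col4a6 products form a further one. Outside the cell the trimers join through their ends into a sheet that carries laminin, nidogen and perlecan. In the eye, mutations of COL4A3, COL4A4 or COL4A5 in people (Alport syndrome) are known for a bulging, fragile lens capsule, and Col4a1 mutations in mice for cataract. SPARC, a secreted glycoprotein of the matrix, binds collagen IV, which is why these chains are of interest in lenses that lack it.

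The lens epithelium of 28-day-old mice was studied. 4 KO lenses came from 3 SPARC-null mice (both eyes of animal 1, lenses 1L and 1R, and left eyes of animals 4 and 7, lenses 4L and 7L), and 3 WT lenses came from 3 wild-type mice (left eyes of animals 2, 5 and 6, lenses 2L, 5L and 6L). All were of C57Bl/6 background and of 1 litter, KO animal 7 is male and the rest female by their labels, and the labels do not give the deleted part of Sparc. Epithelial cells were cut from sections by laser capture (dissection under a microscope), and RNA amplified over 2 cycles was measured lens by lens on Affymetrix mouse arrays.

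The labels were checked with Sparc, whose brightest probe set spanned 8.14 to 70.5 signal units over the KO lenses, against 27370 to 49972 over the WT lenses, and fell by 9.94 on the log2 scale (limma adjusted p = 3.41e-06). Another Sparc probe set fell by 9.37 (limma adjusted p = 1.10e-05), and a weak one, at 84.96 to 128.9 signal units in KO lenses and 9.25 to 118.3 in WT lenses, differed by 0.86 and did not pass. The trimmed mean signal was 500.003 or 500.004 on every array, and the highest signal of an array was 42153 to 53056 in KO lenses and 28328 to 53054 in WT lenses, the lowest being that of the WT lens 2L. Precision is limited by there being 7 arrays. Of 7 lens epithelium markers, 6 lay above the brightest bacterial control (background, below) in every lens, and Foxe3, a transcription factor of this epithelium, did not in 2 KO lenses and 1 WT lens. All measured markers of lens fibres (8), stromal fibroblasts (7), pigment cells (5), photoreceptors (4) and skeletal muscle (5) also lay above it in every lens.

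The genes lie head to head as neighbours, Col4a1 beside Col4a2 on chromosome 8, Col4a3 beside Col4a4 on chromosome 1 and Col4a5 beside Col4a6 on chromosome X. The Col4a1 and Col4a2 promoter windows are shown because they share sequence on opposite strands, within which the annotated transcripts of both chains of the commonest trimer start. The windows are from RefSeq, build GRCm38.p6, and run from 250 bases before to 50 bases after the annotated start, 5′ to 3′ on the strand of the gene. Capitals mark the 78 bases that the windows have in common, at chr8:11312777-11312854. Windows of 5 of the 6 genes were matched by symbol.
Col4a1 promoter, chr8:11312777-11313076, minus strand: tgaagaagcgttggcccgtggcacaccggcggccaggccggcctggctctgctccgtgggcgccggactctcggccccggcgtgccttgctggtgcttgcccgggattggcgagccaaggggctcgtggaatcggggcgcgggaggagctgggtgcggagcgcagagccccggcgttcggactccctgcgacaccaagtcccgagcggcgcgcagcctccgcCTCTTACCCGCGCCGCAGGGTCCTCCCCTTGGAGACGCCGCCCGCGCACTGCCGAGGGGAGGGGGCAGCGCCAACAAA
Col4a2 promoter, chr8:11312555-11312854, plus strand: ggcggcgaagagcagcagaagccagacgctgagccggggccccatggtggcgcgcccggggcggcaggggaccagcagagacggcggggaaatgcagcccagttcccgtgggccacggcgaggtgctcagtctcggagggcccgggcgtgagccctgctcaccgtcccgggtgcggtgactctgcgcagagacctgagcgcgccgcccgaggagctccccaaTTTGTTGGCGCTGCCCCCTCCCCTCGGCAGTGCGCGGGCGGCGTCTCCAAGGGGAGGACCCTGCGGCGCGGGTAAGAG

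The common stretch held 1 GGGCGG (GC box) and 1 CCCTCCCC (CTC box), counted on both strands. Outside it the Col4a1 window held 1 CCAAT, and the Col4a2 window held 2 further GGGCGG and 1 CCAAT that ended on the first base of the common stretch. The Col4a5 window, at chrX:141475169-141475468, held 1 GGGCGG and 1 CCCTCCCC that overlapped, and 1 CCAAT. The Col4a6 window held 1 GGGCGG and none of the others, and the Col4a4 window held none of these motifs. TATAAA was found in 0 of the 5 windows. Among 32817 promoter windows of the same length, 35.6% held GGGCGG, 37.4% CCAAT, 13.6% TATAAA and 10.8% CCCTCCCC. The GC content was 74.0% for Col4a1 and 73.7% for Col4a2, against 63.3% for Col4a4, 52.7% for Col4a5, 48.3% for Col4a6 and a median of 52.7% over all windows.

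The level of each chain was read first against background, gauged by 27 control probe sets for bacterial genes absent from mouse RNA (0.199 to 45.5 signal units). All 12 collagen IV probe sets lay above the highest of these controls in each of the 7 lenses. The smallest margin was that of Col4a6 at 1421006_at, whose lowest lens was 13.1 times that array's highest control. The lowest rank of the 12 was the 75.0th percentile, for the same probe set in the WT lens 5L. The share of all probe sets above these controls was not computed, so lying above them does not set these chains apart. Levels are given below as log2(signal + 16) after quantile normalization between arrays, on which the median over all probe sets and lenses was 6.83. Probe sets differ in how well they bind, so levels are compared between lenses and not between genes.

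Col4a1, the chain present in a pair of copies in the commonest trimer, was near the top of every array. Its brighter probe set, 1452035_at, was at 15.32 (1L), 15.28 (1R), 15.32 (4L) and 15.35 (7L) in KO lenses, and at 15.24 (2L), 15.16 (5L) and 15.28 (6L) in WT lenses. The KO and WT lenses overlapped, since 1R and 6L had the same value. The means were 15.32 ± 0.02 in KO and 15.23 ± 0.06 in WT (SD, n = 3 animals each), with a log2 difference of 0.094 (95% interval -0.29 to 0.47, limma adjusted p = 0.99988). The other probe set, 1426348_at, spread more, at 14.01, 13.80, 13.93 and 13.13 in the KO lenses 1L, 1R, 4L and 7L, and at 13.94, 13.38 and 13.63 in the WT lenses 2L, 5L and 6L. The KO lens 7L was the lowest of all and 1L the highest, so the range of the KO lenses enclosed that of the WT lenses. Its means were 13.65 ± 0.46 in KO and 13.65 ± 0.28 in WT (SD, n = 3 animals each; log2 difference 0.005, 95% interval -0.57 to 0.58).

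Col4a2, the partner chain of Col4a1, had 1 probe set, 1424051_at, at 15.17 (1L), 15.17 (1R), 15.14 (4L) and 15.16 (7L) in KO lenses and 15.32 (2L), 15.10 (5L) and 15.10 (6L) in WT lenses. The KO lenses lay close together, and the WT lens 2L stood above all others. The difference was -0.015 (95% interval -0.41 to 0.38). In fold terms the intervals ran from 0.82 to 1.39 for Col4a1 at its brighter probe set and from 0.76 to 1.30 for Col4a2.

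These probe sets ranked at or above the 99.96th percentile on every array, where the scale leaves little room above them. The deposited signal of Col4a1 was 38357 to 45974 in KO lenses and 24401 to 47088 in WT lenses, and that of Col4a2 was 32587 to 42529 in KO lenses and 26468 to 41136 in WT lenses. The low ends of the WT ranges were both lens 2L, whose array had the lowest ceiling. On the signals as deposited the log2 difference was 0.21 for Col4a1 and 0.088 for Col4a2, neither past the test. A change near the top of the arrays is therefore poorly resolved at these probe sets.

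The balance of Col4a1 against Col4a2 within a lens was described at the brighter probe sets, without a test. Col4a1 minus Col4a2 was 0.15, 0.1, 0.18 and 0.19 in the KO lenses 1L, 1R, 4L and 7L, and -0.07, 0.06 and 0.18 in the WT lenses 2L, 5L and 6L. The WT lens 6L lay among the KO lenses and the other WT lenses lay below them. The means were 0.16 ± 0.03 in KO and 0.05 ± 0.13 in WT (SD, n = 3 animals each), 0.11 apart on the log2 scale, and 0.044 apart without WT animal 2. Both probe sets are near the top of the arrays, so this balance is as poorly resolved as its parts.

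**Figure D1:**
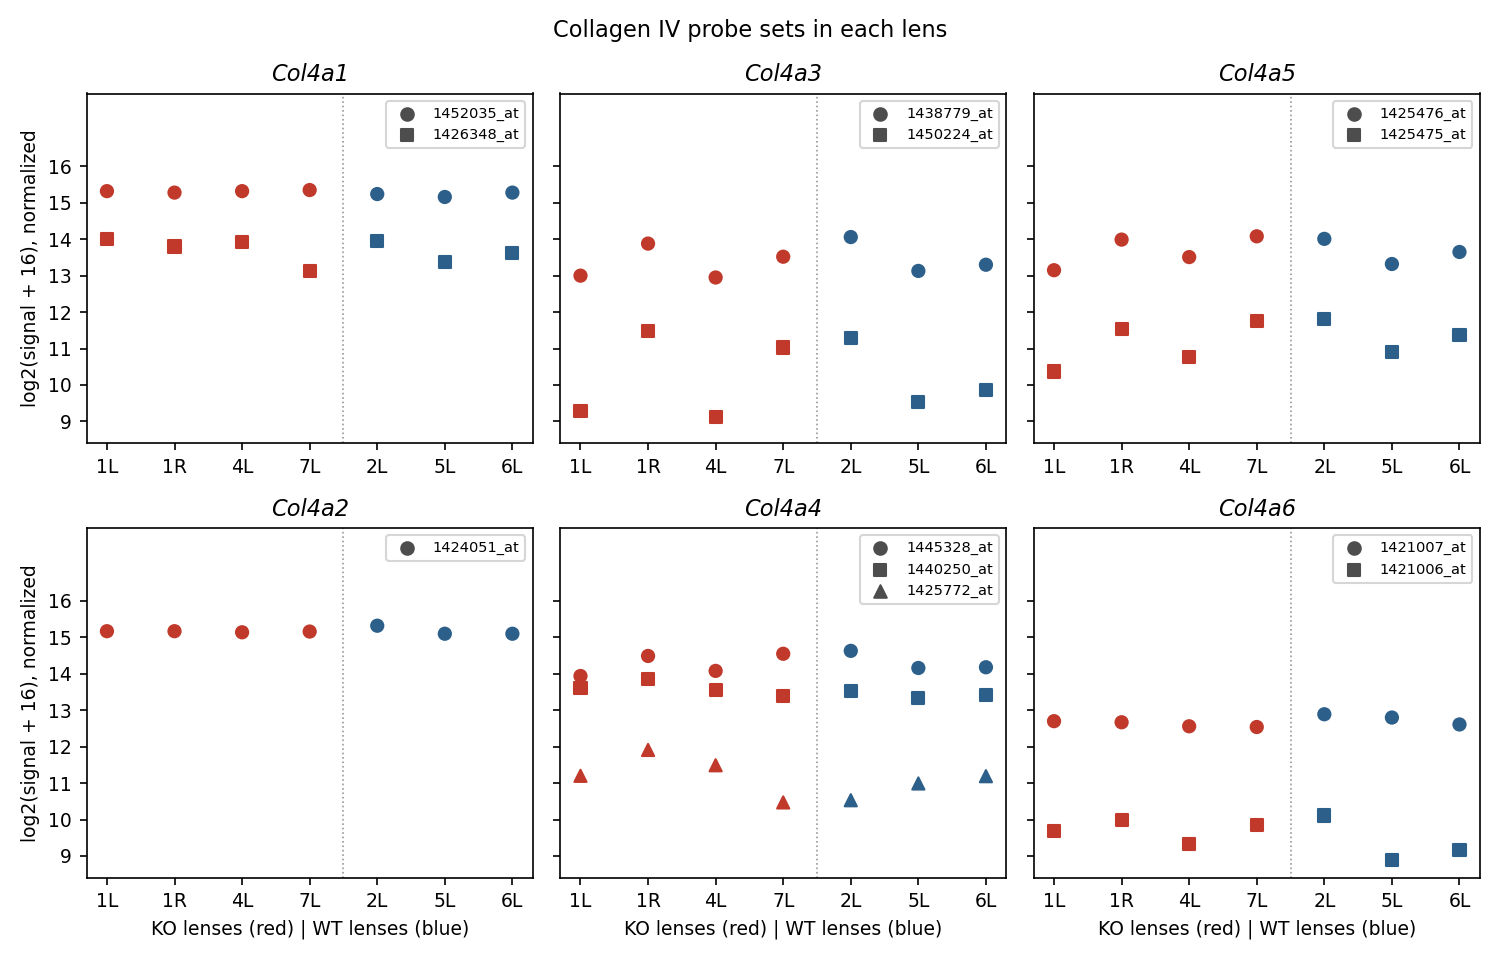
Normalized log2(signal + 16) of the 12 collagen IV probe sets in each lens, 1 panel per gene, with KO lenses (red) left of WT lenses (blue) and a marker shape for each probe set. The Col4a1 and Col4a2 points near 15 are almost level across the 7 lenses, while the second Col4a3 probe set ranges from 9.11 to 11.49, with high and low lenses in both groups.

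Col4a3, a chain of the second trimer and one of those affected in Alport syndrome, had the probe set that varied most between lenses, its weaker one. Its brighter probe set, 1438779_at, was at 13.00, 13.88, 12.95 and 13.52 in the KO lenses 1L, 1R, 4L and 7L, and at 14.06, 13.13 and 13.30 in the WT lenses 2L, 5L and 6L. The other, 1450224_at, was at 9.29, 11.49, 9.11 and 11.03 in those KO lenses and at 11.30, 9.53 and 9.85 in those WT lenses. At this probe set the KO lenses 1R and 7L and the WT lens 2L stood over 1 log2 unit above the remaining 4 lenses, 2 of them KO and 2 WT. The range over the 7 lenses was 2.38 on the log2 scale, and within KO animal 1 lens 1L minus 1R was -2.20. The brighter probe set ranged over 1.11, less than the weakest probe sets of Col4a4 (1.44), Col4a5 (1.46) and Col4a6 (1.21). The KO minus WT difference was -0.19 (95% interval -0.80 to 0.41) at the brighter probe set and -0.050 (95% interval -1.25 to 1.15) at the other, where a 2-fold change in either direction lies within the interval.

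Col4a4, which joins Col4a3 and Col4a5 in the same trimer, had 3 probe sets. At the brightest, 1445328_at, KO lenses were at 13.94 (1L), 14.49 (1R), 14.08 (4L) and 14.55 (7L), and WT lenses at 14.63 (2L), 14.16 (5L) and 14.18 (6L), with a difference of -0.045 (95% interval -0.52 to 0.43). The groups overlapped, with the KO lens 1L lowest and the WT lens 2L highest. At 1440250_at KO lenses ran from 13.38 to 13.86 and WT lenses from 13.34 to 13.52 (difference 0.14, 95% interval -0.27 to 0.54). At 1425772_at the KO lenses were at 11.20, 11.91, 11.49 and 10.47 (1L, 1R, 4L, 7L) and the WT lenses at 10.53, 10.99 and 11.19 (2L, 5L, 6L), a difference of 0.27 (95% interval -0.43 to 0.97). Here the KO lens 7L was the lowest of all 7 and the other KO lenses were the 3 highest. Without KO animal 7 the difference at 1425772_at was 0.62, with an unadjusted p of 0.0283 and a limma adjusted p of 0.99676 (0.7786 to 0.99999 over the alternatives). It was 0.077 without KO animal 1, 0.11 without KO animal 4 and 0.082 without WT animal 2.

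Col4a5, the X-linked chain shared by the second trimer and the one with Col4a6, was at 13.15 (1L), 13.99 (1R), 13.51 (4L) and 14.08 (7L) in KO lenses and 14.01 (2L), 13.32 (5L) and 13.65 (6L) in WT lenses at its brighter probe set, 1425476_at. The means were 13.72 ± 0.31 in KO and 13.66 ± 0.35 in WT (SD, n = 3 animals each), a difference of 0.061 (95% interval -0.47 to 0.59). Within KO animal 1 lens 1L minus 1R was -0.83, further from 0 than the difference between the groups. At the other, 1425475_at, KO lenses ran from 10.37 (1L) to 11.75 (7L) and WT lenses from 10.91 (5L) to 11.82 (2L), with a difference of -0.22 (95% interval -0.91 to 0.47).

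Col4a6, the X-linked neighbour of Col4a5 and its partner in the remaining trimer, was nearly level at its brighter probe set, 1421007_at. KO lenses were at 12.70 (1L), 12.67 (1R), 12.56 (4L) and 12.54 (7L) and WT lenses at 12.89 (2L), 12.80 (5L) and 12.61 (6L). The WT lenses 2L and 5L lay above every KO lens, and 6L lay among them. The means were 12.59 ± 0.08 in KO and 12.77 ± 0.14 in WT (SD, n = 3 animals each), a difference of -0.17 (95% interval -0.57 to 0.22). This had the smallest unadjusted p of the 12 probe sets, 0.346. At the weaker 1421006_at the KO lenses ran from 9.33 (4L) to 9.98 (1R) and the WT lenses from 8.90 (5L) to 10.11 (2L), with a difference of 0.28 (95% interval -0.46 to 1.02). Without WT animal 2 that difference was 0.64 (unadjusted p = 0.0436, limma adjusted p = 0.83792, and 0.77019 to 0.99999 over the alternatives). It was 0.032 without WT animal 5 and 0.17 without WT animal 6. The male KO lens 7L was the highest of the 7 for Col4a5 at 1425476_at and the lowest for Col4a6 at 1421007_at, but at neither end for Col4a5 at 1425475_at or Col4a6 at 1421006_at.

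Over the 12 probe sets, 6 values were higher and 6 lower in KO lenses, and the median of their log2 differences was -0.005. Over all probe sets the median was -0.0118 and 48.4% were higher. With the limma adjusted p under 0.05, 0 of the 12 passed, where 0.00666% of all probe sets did (3 of 45037). At an unadjusted p under 0.05 there were also 0 of 12, beside 4.06% of all probe sets (2.24% higher and 1.81% lower in KO). The ranges of KO and WT lenses were separate at 0 of the 12, beside 5.33% of all. Every member differed by less than 0.3 in either direction, as did 63.2% of all probe sets and 74.7% of the 18153 above the median level in all lenses. At 10 of the 12 the 95% interval lay inside a 2-fold change in either direction, the exceptions being Col4a3 at 1450224_at and Col4a6 at 1421006_at. The same share over all probe sets was not computed, so this count is not a trait of collagen IV. A p above the threshold does not show that the levels are equal. For Col4a1 at 1452035_at and Col4a2, near the top of the arrays, the narrow intervals describe the normalized signal and do not bound a difference in RNA. In captured tissue, fewer epithelial cells and less RNA per cell cannot be told apart.

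**Figure D2:**
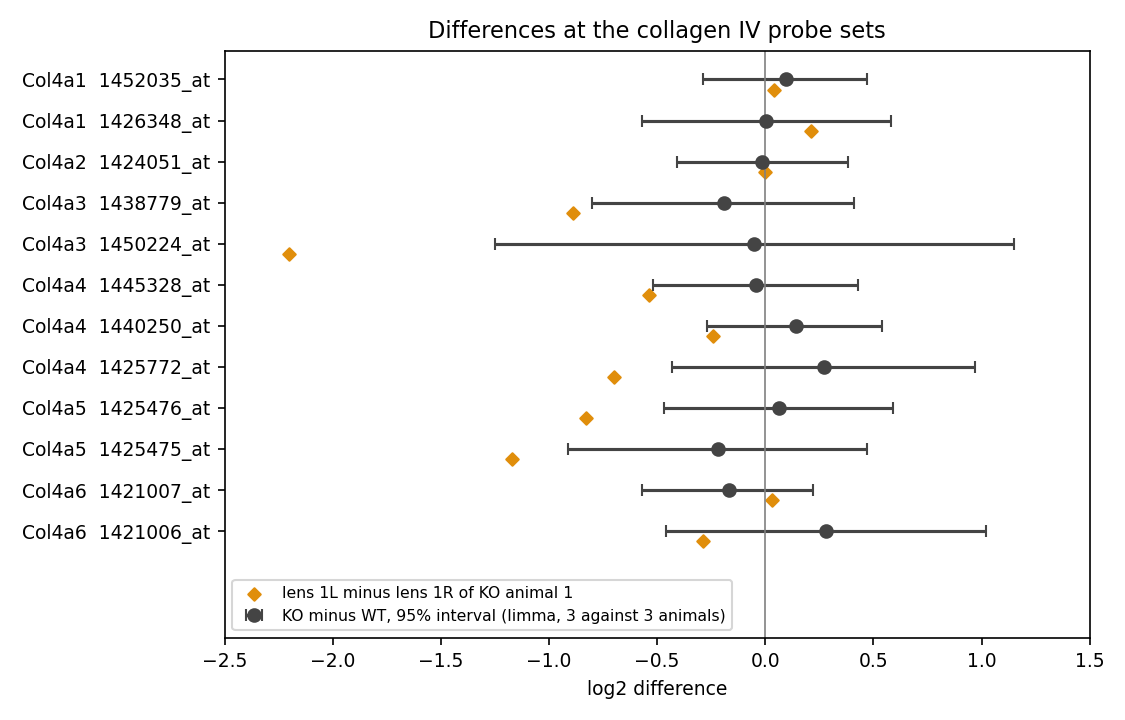
KO minus WT log2 difference with its 95% interval (circles, limma, 3 against 3 animals) at each collagen IV probe set, and the difference between the left and right lens of KO animal 1 (diamonds). All 12 intervals include 0, and the diamond lies further from 0 than the circle at 9 probe sets, reaching -2.20 for Col4a3 at 1450224_at.

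The eyes of KO animal 1 differed from each other by more than KO from WT animals at 9 of the 12 probe sets, as they did at 68.5% of all probe sets. The exceptions were Col4a1 at 1452035_at, Col4a2 and Col4a6 at 1421007_at, where the eyes differed by 0.04, 0.00 and 0.03.

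The spread between lenses had a shared pattern that crossed genotype. At 6 of the 12 probe sets, both of Col4a3, both of Col4a5, the brightest of Col4a4 and the weaker of Col4a6, the 3 highest lenses were the KO lenses 1R and 7L and the WT lens 2L. This was also so at 9% of the 18153 probe sets above the median level in all lenses. The Gapdh signal ratio of the 3′ to the 5′ end, lower where RNA is more intact, was 15.9 in 1R, 9.88 in 7L and 3.75 in 2L, against 12.7, 10.6, 9.06 and 15.9 in 1L, 4L, 5L and 6L. The 3 lenses thus held both the lowest and the highest Gapdh ratio. The same ratio for actin was 15.1 in 1R, 13.8 in 7L and 5.89 in 2L, against 19.1, 15.0, 16.4 and 23.8 in 1L, 4L, 5L and 6L, so by actin they were 3 of the 4 lenses with the lowest ratio. The part of RNA integrity in the pattern was not tested. The positions of the probe sets along their transcripts were not used here.

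**Figure D3:**
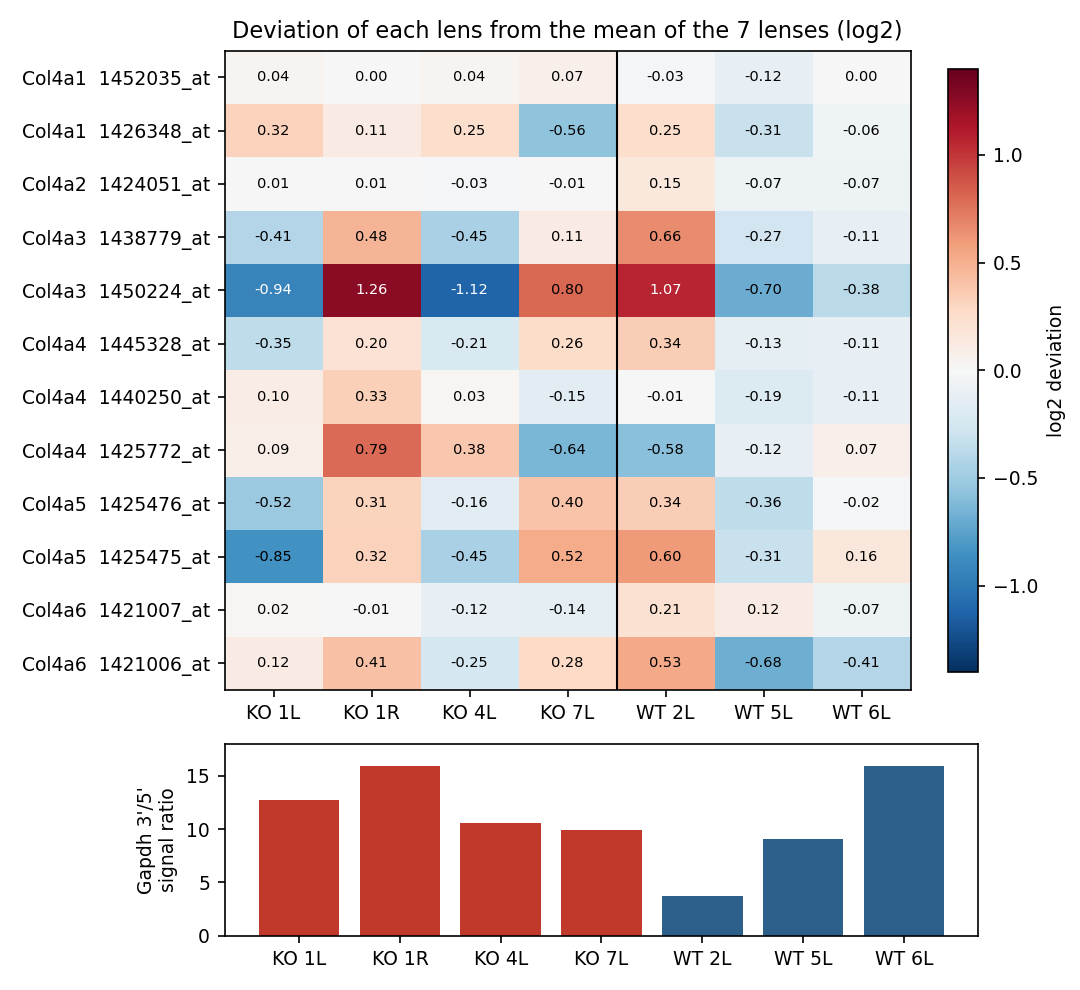
Deviation of each lens from the mean of the 7 lenses at every collagen IV probe set (log2, red above and blue below, KO lenses left of WT lenses), over bars of the Gapdh 3′ to 5′ signal ratio of each lens. The columns of the KO lenses 1R and 7L and the WT lens 2L are red for both Col4a3 and both Col4a5 probe sets, and lens 2L has the shortest bar, at 3.75.

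The variation of head-to-head neighbours over the 7 lenses was compared pair by pair. At the brightest probe sets Pearson's r was 0.92 between Col4a3 and Col4a4, 0.05 between Col4a1 and Col4a2, and -0.09 between Col4a5 and Col4a6. An r at least that high with the first gene of the pair was found for 0.722% of all probe sets above the median level for Col4a3, 41.3% for Col4a1 and 53.3% for Col4a5. Among chains that are not neighbours, r ran from -0.74 (Col4a1 with Col4a6) to 0.94 (Col4a4 with Col4a5) at the brightest probe sets. Col4a3 with Col4a5 gave 0.84, so a high r was not particular to neighbours. Col4a1 and Col4a2 spanned only 0.19 and 0.22 over the lenses, so there was little variation to share. These are descriptions over 7 arrays, of which 1L and 1R share an animal and all share amplification and scale.

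Probe sets of the same gene did not always follow each other. The r was 0.96 for Col4a3 and 0.95 for Col4a5, but 0.11 for Col4a1 and 0.14 for Col4a6. Within Col4a4, 1440250_at and 1425772_at gave 0.74, while the brightest, 1445328_at, gave 0.07 and -0.39 with them. The likeness between neighbours depended on the probe sets too. The r between the brighter Col4a3 probe set and the other Col4a4 probe sets was 0.31 and -0.20, that between Col4a1 at 1426348_at and Col4a2 was 0.43, and that of Col4a6 at 1421006_at with the Col4a5 probe sets was 0.65 and 0.51. The difference between pairs was not tested.

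The search covered 16058 probe sets with 1 symbol above the median level in all lenses. Sought were the genes most like the brightest probe set of each chain over the 7 lenses. For Col4a3 they were Tjp1 (r = 0.99), a tight junction scaffold, Mob3b (0.99) and Hnrnph1 (0.987), an RNA-binding protein. For Col4a4 they were Echdc1 (0.991), Asah1 (0.99), a lysosomal ceramidase, and Zfp281 (0.989). For Col4a5 they were Ints13 (0.986), Kif16b (0.985) and Rest (0.983), a repressor of neural genes. For Col4a2 they were Mapre2 (0.992), Ccdc127 (0.977) and Vps33a (0.976), for Col4a6 Ppp4c (0.981), Bves (0.98) and Chd7 (0.965), and for Col4a1 Hmbox1 (0.954), Gfra2 (0.954) and 4930456A14Rik (0.953). Collagen IV probe sets were left out of this search, and no p is given for values picked as the highest of so many over 7 lenses. For Col4a1, Col4a4 and Col4a6 the brightest probe set did not follow the others of its gene, so the likeness is to that probe set alone.

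Genes that act on collagen IV were read from lists by role, at the brightest probe set of each gene. Of 14 measured genes for chain folding, modification and cross-linking, 2 were higher and 12 lower in KO, with a median of -0.15, and 0 passed the limma adjusted p. Among probe sets above the median level, 46.5% were higher and the median was -0.021. Crtap, a subunit of the prolyl 3-hydroxylase complex, was at 11.28, 10.47, 11.18 and 11.21 in the KO lenses 1L, 1R, 4L and 7L and 11.63, 11.49 and 11.69 in the WT lenses 2L, 5L and 6L. Every KO lens lay below every WT lens (difference -0.52, SE 0.19, unadjusted p = 0.0217, limma adjusted p = 0.99988), as at 2.76% of all probe sets. For KO animal 1, the left lens alone gave a Crtap difference of -0.38 and the right alone -0.65. Without that animal it was -0.41. Ppib, a proline isomerase, averaged 13.81 ± 0.16 in KO and 14.04 ± 0.16 in WT (SD, n = 3 animals each), while its other probe set differed by 0.12. P4ha3, a prolyl 4-hydroxylase subunit, was weak, at 5.75 in KO and 6.41 in WT, with 2 KO lenses no brighter than the top bacterial control, and the difference of -0.66 was -0.20 without KO animal 1. Pxdn, the peroxidase that forms the sulfilimine cross-link of collagen IV, differed by 0.03 and Serpinh1, the collagen chaperone Hsp47, by -0.09 (-0.36 at its other probe set).

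Of 11 capsule partners, the laminin, nidogen and proteoglycan genes of the basement membrane, 3 were higher and 8 lower in KO (median -0.13), and 0 passed. Col18a1, the source of endostatin, averaged 8.24 ± 0.21 in KO and 7.63 ± 0.34 in WT (SD, n = 3 animals each), with no overlap between KO and WT lenses (difference 0.61, SE 0.30, unadjusted p = 0.0742, limma adjusted p = 0.99988). All KO lenses lay above all WT lenses at 2.56% of probe sets. Lamc1 and Lama1, laminin chains, differed by -0.35 and -0.27, and Nid1, which links laminin to collagen IV, averaged 14.31 ± 0.14 in KO and 14.45 ± 0.16 in WT.

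Of 6 collagen receptors, 2 were higher and 4 lower (median -0.05), and 0 passed. Ddr1, a receptor tyrosine kinase that binds collagen, averaged 12.72 ± 0.22 in KO and 11.67 ± 0.85 in WT at its brightest probe set (SD, n = 3 animals each; difference 1.04, SE 0.37, unadjusted p = 0.0177, limma adjusted p = 0.99988). The KO lens 1L, at 12.06, lay below the WT lens 5L, at 12.38, so the groups overlapped. The lowest lens was the WT lens 2L, at 10.73, and without WT animal 2 the difference was 0.57. The other 7 Ddr1 probe sets differed by -0.42 to 0.91, 4 of them downwards. Itga1 and Itga2, the integrin alpha chains of collagen receptors, differed by 0.34 and -0.24, and the difference of Itga2 was -0.028 without KO animal 1. For Itga1 every KO lens lay above every WT lens, as at 2.56% of all probe sets.

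Of 7 proteases and inhibitors, 5 were higher and 2 lower (median 0.04), and 0 passed. Timp1, which inhibits matrix metalloproteinases, measured 11.49, 10.26, 11.41 and 9.81 in the KO lenses 1L, 1R, 4L and 7L and 9.54, 9.27 and 9.05 in the WT lenses 2L, 5L and 6L. Every KO lens lay above every WT lens (difference 1.41, SE 0.37, unadjusted p = 0.00343, limma adjusted p = 0.99988), as at 2.56% of all probe sets. The difference was 1.06 to 1.85 over the alternatives. Mmp3, a stromelysin, differed by -0.95 (SE 0.76), with 1 KO and 1 WT lens no brighter than the top bacterial control, and this was -1.79 without WT animal 2 and -0.084 without WT animal 5. Timp3, an inhibitor held in the matrix, differed by -0.21 (SE 0.21), and by -0.049 without WT animal 2. Its other probe sets differed by -0.07, 0.31 and -0.42. Mmp2, a gelatinase that cleaves collagen IV, differed by 0.04, and Timp2 by 0.00.

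**Figure D4:**
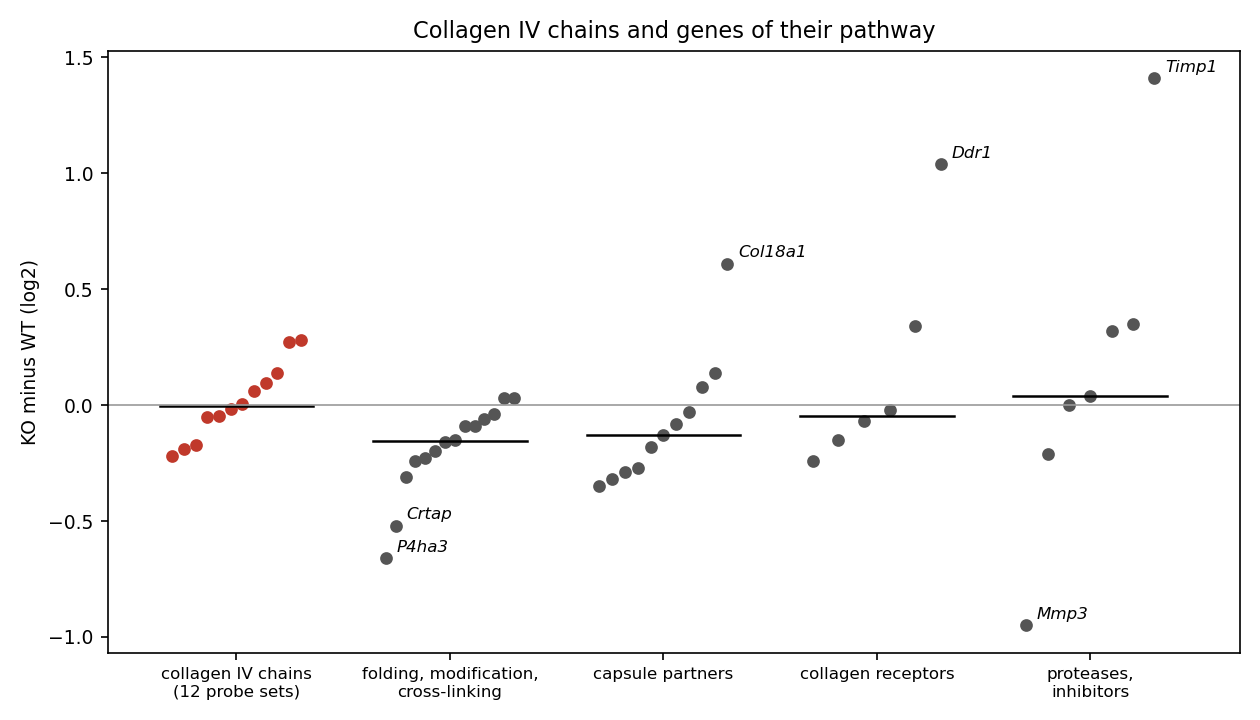
KO minus WT log2 difference (vertical axis) of the 12 collagen IV probe sets (red) and of the genes of 4 pathway lists at their brightest probe set (grey), with a line at the median of each group. The collagen IV points lie between -0.22 and 0.28, inside the range of every list except folding, which reaches only 0.03.

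Endothelial cells, stromal cells and other epithelia also make collagen IV, so markers of other cell types are given beside these values. The summed signal of 8 endothelial markers was 1095 to 1167 in KO lenses and 672 to 1044 in WT lenses, with no overlap. Taken singly, KO and WT lenses were separate at 0 of the 8 markers. In KO 7 of 8 markers were higher, and 0 passed the test. Pecam1 and Tie1 were no brighter than the top bacterial control in any lens. For 7 stromal fibroblast markers the summed signal was 23124 to 36832 in KO lenses and 26287 to 44319 in WT lenses. Of these, 5 of 7 were lower and all 7 markers were above background in every lens. For 8 macrophage markers the summed signal was 1482 to 2463 in KO lenses and 699 to 1377 in WT lenses, also with no overlap. In KO 7 of 8 were higher, and 0 passed the test. Taken singly, only Aif1 had separate KO and WT lenses, and it was lower in KO (difference -0.8). Aif1 was no brighter than the top bacterial control in any lens. C1qa, C1qb, C1qc and Csf1r differed by 1.61, 1.18, 0.88 and 1.05 (limma adjusted p = 0.99988 for each). For C1qa and C1qb, 1 WT lens was no brighter than that control. Emr1, Cd68 and Ptprc differed by 0.03, 0.07 and 0.29. Csf1r, the macrophage marker with the highest level, overlapped, with the KO lens 1R (9.79) below the WT lens 5L (9.85). The other Csf1r probe sets differed by 0.39 and -0.33. All KO lenses lay above all WT lenses at 2.56% of probe sets, and no such share was computed for sums. For 5 surface epithelium markers the summed signal was 1209 to 13878 in KO lenses and 7670 to 15654 in WT lenses, with 5 of 5 lower. Of these, only Upk1b had every KO lens below every WT lens (difference -1.37, limma adjusted p = 0.91837), as at 2.76% of all probe sets. The sums of 5 pigment cell markers (13272 to 39917 in KO, 7047 to 22220 in WT), 4 photoreceptor markers (33259 to 48350 in KO, 27659 to 51037 in WT) and 5 skeletal muscle markers (8242 to 32982 in KO, 7216 to 53964 in WT) overlapped. Taken singly, Rpe65 of the pigment cells (difference -1.13) and Prph2 of the photoreceptors (-0.48) were lower in KO without overlap. The other 4 pigment cell markers were higher in KO. The sums of 7 lens epithelium markers (102804 to 128959 in KO, 78388 to 126270 in WT) and 8 lens fibre markers (152735 to 199635 in KO, 131751 to 204254 in WT) overlapped too, with 7 of the 8 fibre markers lower in KO. The part of these cells in the collagen IV signals was not tested.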

How the data were processed

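The deposited table holds linear intensity values, 1 summary signal per probe set and lens, and the 2% trimmed mean was the same on every array when tested on the table. Per the labels' protocols, RNA was column-purified, amplified in 2 cycles and biotin-labelled. For the summary software, background correction and genome build, the sources used here give no name. From 45101 probe sets, 64 controls were left out. Values were turned into log2(signal + 16), which understates changes of weak probe sets, and quantile normalized. Lenses 1L and 1R were averaged. KO and WT animals (3 each) were compared with limma 3.58.1 (lmFit and trended eBayes, under R 4.3.3). The two-sided p-values of the 45037 probe sets were adjusted together by the Benjamini-Hochberg method, with 0.05 as the threshold.

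Of the probe sets, 34945 had 1 symbol, 932 several and 9160 none. The text names all collagen IV probe sets, the 3 genes of smallest p in each pathway list, others of a list to show a level, and the 3 genes most like each chain. List genes not found under 1 symbol were left out. The members and lists were chosen with earlier results of these data known. Alternatives were all 7 lenses taken as independent, 1 eye of KO animal 1 in place of both, median centring, signals as deposited, a filter on low values, no trend, array weights, a pseudocount of 1 or of 64, a threshold of 0.1, the median bacterial control as background, and leaving out each animal.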

Additional observations from a re-analysis of the deposited data

How the results depend on the processing

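No collagen IV probe set passed the limma adjusted p under any of 17 alternative settings (lowest adjusted p 0.77019), and all 12 stayed above background with the median bacterial control as the gauge. Of 204 alternative values of the 12 differences, 181 kept their direction and 23 changed sign. The filter on low values, the fit without a trend and the threshold of 0.1 leave every difference as it was. Under these settings no sign could change, and their values are among the 181. 5 probe sets kept their sign throughout, Col4a1 1452035_at, Col4a4 1440250_at and 1425772_at, and both of Col4a6. Leaving out each animal gave -0.13 to 0.27 for Col4a1 1426348_at, -0.051 to 0.058 for Col4a2, -0.38 to 0.089 for Col4a3 1438779_at, -0.48 to 0.49 for Col4a3 1450224_at, -0.18 to 0.11 for Col4a4 1445328_at, -0.12 to 0.24 for Col4a5 1425476_at and -0.51 to 0.0088 for Col4a5 1425475_at. For the others it gave 0.06 to 0.12 for Col4a1 1452035_at, 0.045 to 0.23 and 0.077 to 0.62 for Col4a4 1440250_at and 1425772_at, and -0.25 to -0.11 and 0.032 to 0.64 for Col4a6 1421007_at and 1421006_at. With only the right lens standing for KO animal 1, the sign changed for Col4a1 1426348_at (-0.03), Col4a3 1450224_at (0.32) and Col4a4 1445328_at (0.046), and with the left only for Col4a5 1425476_at (-0.078). It also changed with median centring for Col4a1 1426348_at (-0.015), with array weights for Col4a2 (0.015) and Col4a3 1450224_at (0.19), with the signals as deposited for Col4a2 (0.088) and Col4a4 1445328_at (0.029), and with the 7 lenses as independent samples for Col4a3 1450224_at (0.0036). The cause of these changes was not tested.

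The receptor list median was 0.079 with the right lens, 0.0032 with the signals as deposited and -0.076 to 0.094 without each animal. The protease list median was -0.039 with the right lens and -0.057 with median centring. The folding and partner lists kept their direction (-0.26 to -0.059 and -0.20 to -0.062). The Col4a1 minus Col4a2 difference between groups was 0.044 to 0.17 without each animal. No paired analysis was possible because KO and WT animals share no replicate number. The animal as a random block could not be fitted, since only KO animal 1 had more than 1 lens. A lone pair of eyes and 3 animals a group limit what these intervals can resolve, and signals near the top of the arrays limit Col4a1 and Col4a2.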
